A study of Mus musculus with 6 samples.

Results

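The genes described here are the aminoacyl-tRNA synthetases, the enzymes that load each amino acid onto its transfer RNA, and the 2 scaffold proteins Aimp1 and Aimp2. They are 20 cytosolic synthetase genes, 16 mitochondrial ones (symbols ending in 2) and the 2 scaffolds, which makes 38 of the 52550 gene identifiers counted. The rule that picks the genes uses their names and no measured value, though the set was proposed with earlier results of these data known. All 38 were found and passed the filter on low counts, which left 14913 genes to be tested.

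The study sequenced polyadenylated RNA from single cortical hemispheres of mouse pups (C57BL6/J, postnatal day 2). Control pups had floxed Slc7a5 alleles and lacked Cre (labelled Slc7a5fl/fl; Emx1Cre-, n = 3), and knockout pups had the same floxed alleles together with Cre (Slc7a5fl/fl; Emx1Cre+, n = 3). Emx1 directs Cre to the dorsal forebrain lineage of excitatory neurons and glia, so microglia, vessels and most interneurons in the tissue keep their alleles. Since Cre was present in all knockouts and in none of the controls, an effect of Cre itself and one of the deletion cannot be told apart. Slc7a5 is the transport subunit of LAT1, which carries leucine, isoleucine, valine, methionine, phenylalanine, tyrosine, tryptophan and histidine into cells.

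Cells keep separate sets of synthetases for the cytosol and for the mitochondrion. Part of the cytosolic set is held together by Aimp1, Aimp2 and the scaffold Eef1e1 in the multi-synthetase complex. When amino acids run short, uncharged tRNA activates the kinase GCN2, and the transcription factor ATF4 that is made as a result raises the transcription of many cytosolic synthetase genes. A few genes serve both compartments: Gars and Kars each encode a cytosolic and a mitochondrial form, and mitochondria charge glutamine indirectly, through Ears2 and an amidotransferase.

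Libraries held 8249436 to 10372582 gene counts, and levels are given as CPM, counts scaled to a library of 1e+06. Within each genotype a library is named by a letter from A to C, and both letter B libraries had Xist, the transcript of the inactive X chromosome, at 918 and 961 CPM against at most 2.95 CPM in the others. Slc7a5 had 20.2 to 40.7 CPM in the controls and 9.37 to 15.6 CPM in the knockouts with groups apart (log2 change -1.25 ± 0.28 SE, adjusted p = 0.400 in edgeR and 3.67e-04 in DESeq2). Reads outside exons made up 22.5 to 26.5% of mapped reads in controls and 27.4 to 27.9% in knockouts. Markers of cortical projection neurons were present throughout (Neurod6 at 764 and Tbr1 at 232 CPM in control means), and no marker of the 8 cell type and region lists was at 0. The summed level of 6 interneuron markers, all with higher values in the knockout, was 692 to 755 CPM in controls and 833 to 922 CPM in knockouts. That of 4 oligodendrocyte lineage markers, all with lower values, was 197 to 237 CPM and 175 to 193 CPM, while the groups overlapped for the other 6 lists. The part of these differences in the synthetase values was not tested, and in whole tissue fewer cells of a type and less RNA per cell cannot be told apart.

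In the control cortex the cytosolic synthetases were several times more abundant per length than the mitochondrial ones. The median control level was 16.6 CPM per kilobase of exon for the cytosolic genes (range 5.28 to 80.0) and 2.38 for the mitochondrial genes (range 1.01 to 10.5), a ratio of 6.98. With the length of the principal transcript in place of all annotated exons the ratio was 5.70. The highest levels per kilobase were those of Farsa (80.0), the catalytic alpha subunit of the phenylalanine enzyme, Gars (68.0), the glycine enzyme, and Farsb (62.0), the beta subunit that pairs with Farsa. Cars (5.28), the cysteine enzyme, Vars (5.51), the valine enzyme, and Qars (6.98), the glutamine enzyme, were the lowest of the cytosolic set. Among the mitochondrial enzymes Hars2 (10.5), for histidine, was highest and Wars2 (1.01), for tryptophan, lowest, but with the principal transcript Cars2 (17.5) stood above Hars2 (13.5), and Mars2 (1.27) below Wars2 (1.36). The scaffolds stood at 43.5 for Aimp2 and 22.4 for Aimp1. With the principal transcript the values of genes with many long isoforms shifted most, to 111 for Aimp1, 41.9 for Eprs (11.4 with all exons), which charges glutamate and proline, and from 4.60 to 17.5 for Cars2, the mitochondrial cysteine enzyme, so the order of the genes depends on the length used. The lowest cytosolic gene was then Vars (7.47) in place of Cars (10.8).

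**Figure D1:**
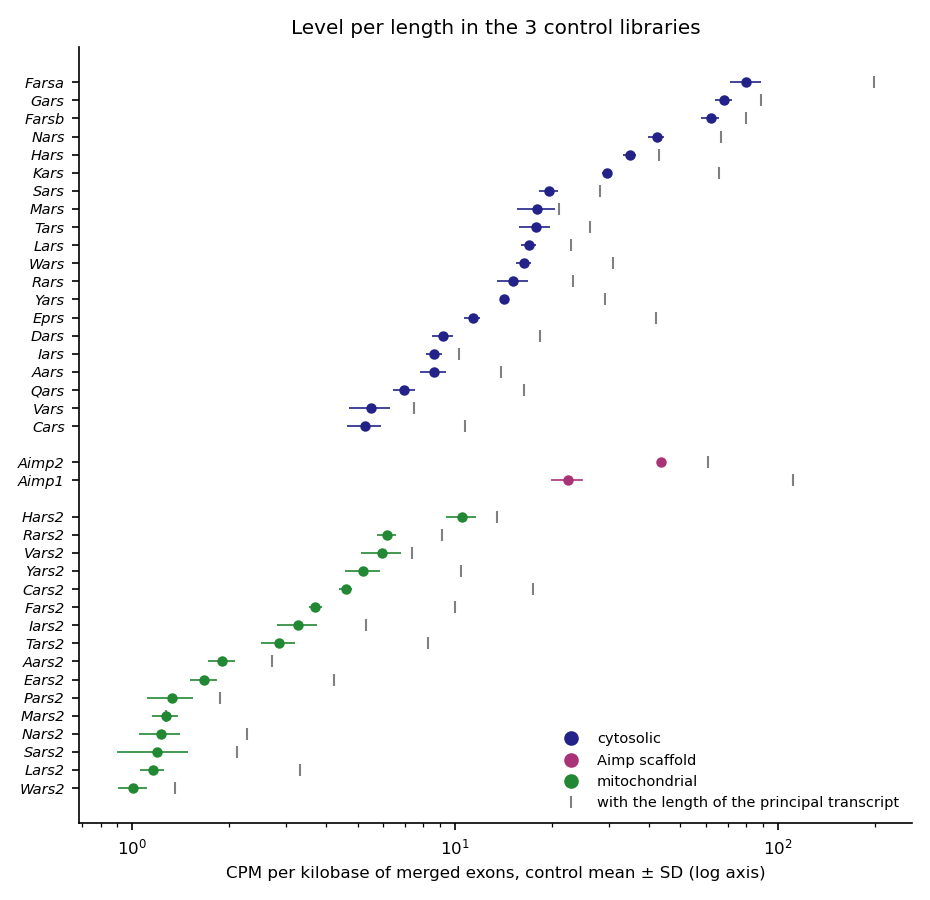
Control level of each of the 38 genes in CPM per kilobase of merged exons (log axis); points are means and bars SDs of 3 controls, and grey ticks use the principal transcript's length. The cytosolic genes run from 5.28 to 80.0 and the mitochondrial ones from 1.01 to 10.5.

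Of the 20 cytosolic synthetases 15 had a higher value in the knockout and 5 a lower one, with a median log2 change of 0.19. Over all 14913 genes tested 50.2% had a higher value, and the median was 0.0011. Their levels added up to 2225, 2133 and 2148 CPM in the 3 controls (given here and below in the order A, B, C) against 2480, 2356 and 2356 CPM in the 3 knockouts. All knockouts lay above all controls in this sum, which was 1.11 times higher (means 2169 ± 49.4 and 2397 ± 71.6 CPM, SD, n = 3).

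No member passed edgeR's quasi-likelihood test at an adjusted p under 0.05, a threshold that 5 of all genes (0.0335%) passed. At an unadjusted p under 0.05, 11 of the 38 members had higher values, against 3.19% of all genes tested, and 0 had lower values, against 3.81%. These 11 were 10 cytosolic genes and Aimp1. The knockout libraries all exceeded the control libraries for 9 cytosolic and 2 mitochondrial genes, against 5.89% of all genes, and all fell below them for 0 members, against 6.28% of all genes. One member, Cars, passed when the letter was added as a block (126 genes or 0.845% called, adjusted p = 0.00276 for Cars) and in DESeq2 (26 genes or 0.206% of those given an adjusted p, 0.0183 for Cars).

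**Figure D2:**
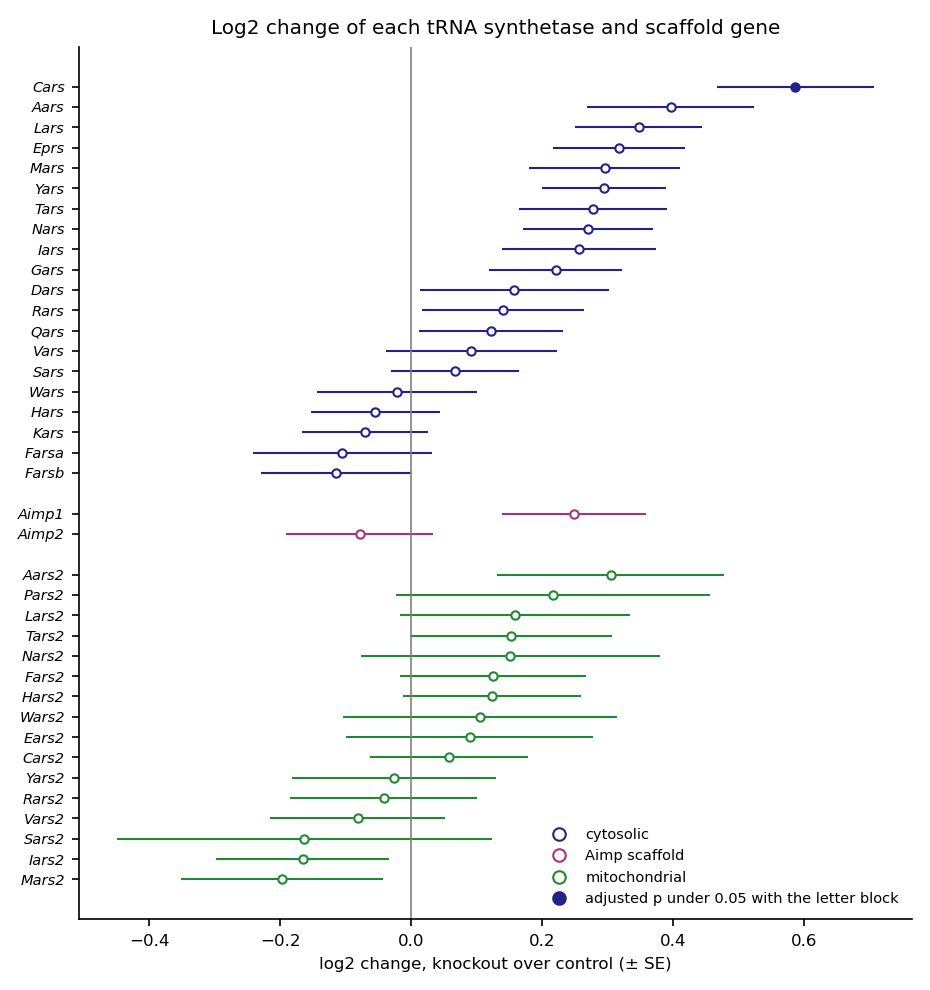
Log2 change of each gene, knockout over control, with its SE from edgeR's fit to 3 libraries per group. Cars at 0.59 is the filled point, called with the letter as a block, and 15 of the 20 cytosolic genes lie above 0.

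Cars (chromosome 7 from 143557230 to 143600090, minus strand, GRCm38) had the largest change of the members. It stood at 38.4, 30.1 and 35.7 CPM in controls, and at 50.4, 55.3 and 51.3 CPM in knockouts. Every knockout was above every control, and the knockouts lay closer together than the controls. Controls averaged 34.8 ± 4.24 CPM and knockouts 52.3 ± 2.58 CPM (SD, n = 3). The log2 change was 0.59 ± 0.12 (SE, edgeR adjusted p = 0.132). With 1 library left out in turn the change ran from 0.50 to 0.66 and the edgeR adjusted p from 0.122 to 0.760. Without the filter on low counts Cars passed in edgeR (adjusted p = 0.00393).

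Lars and Eprs came next by p. Lars, the leucine enzyme, which is also known as a leucine sensor upstream of mTORC1 (chromosome 18 from 42202298 to 42262194, minus strand), was at 85.7, 95.0 and 92.1 CPM in controls and 112, 114 and 121 CPM in knockouts. The groups did not overlap, and the log2 change was 0.35 ± 0.10 (edgeR adjusted p = 0.409, 0.0615 with the letter as a block). Eprs, the bifunctional enzyme of the complex (chromosome 1 from 185363044 to 185428360, plus strand), was at 219, 201 and 197 CPM in controls and 258, 269 and 241 CPM in knockouts. Its groups were apart as well, with a log2 change of 0.32 ± 0.10 (edgeR adjusted p = 0.486).

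Yars, the tyrosine enzyme (chromosome 4 from 129189760 to 129219607, plus strand), had controls of 83.3, 85.5 and 85.4 CPM and knockouts of 108, 103 and 101 CPM. Its controls were the most alike of the cytosolic genes that are given by library, and the log2 change was 0.30 ± 0.095 (edgeR adjusted p = 0.486). Aars, the alanine enzyme (chromosome 8 from 111033144 to 111057664, plus strand), had controls of 77.8, 73.7 and 88.1 CPM and knockouts of 91.6, 128 and 96.2 CPM. The groups were apart, but knockout B stood well above the other knockouts. The log2 change was 0.40 ± 0.13, and 0.23 without that library. Aars shares exon sequence on the same strand with Exosc6, where reads cannot be assigned to either gene.

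Nars, the asparagine enzyme, was at 192, 172 and 187 CPM in controls and at 222, 225 and 218 CPM in knockouts (log2 change 0.27 ± 0.099). Mars, the methionine enzyme, was at 70.8, 54.8 and 59.2 CPM in controls and at 75.4, 79.8 and 71.8 CPM in knockouts (0.30 ± 0.12). Neither gene's groups overlapped, though control A was close to knockout C for Mars. Exons of Mars overlap the stress gene Ddit3 on the opposite strand, which the stranded counts keep apart.

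Tars, the threonine enzyme, had 106, 92.8 and 116 CPM in controls and 140, 114 and 129 CPM in knockouts (0.28 ± 0.11). Gars had 227, 204 and 205 CPM in controls and 260, 249 and 233 CPM in knockouts (0.22 ± 0.10). Tars overlapped between the groups through control C and knockout B, whereas for Gars the knockouts were all above the controls. The isoleucine enzyme Iars, with a log2 change of 0.26 ± 0.12, was the tenth gene with an unadjusted p under 0.05, and its knockouts (49.0 to 61.9 CPM) lay above its controls (42.5 to 47.5 CPM). About 7.15% of the 50-base stretches of Iars are shared with other genes, mostly the locus Gm4849. A read that fits both loci equally is counted for neither, and how many reads this removed was not measured.

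**Figure D3:**
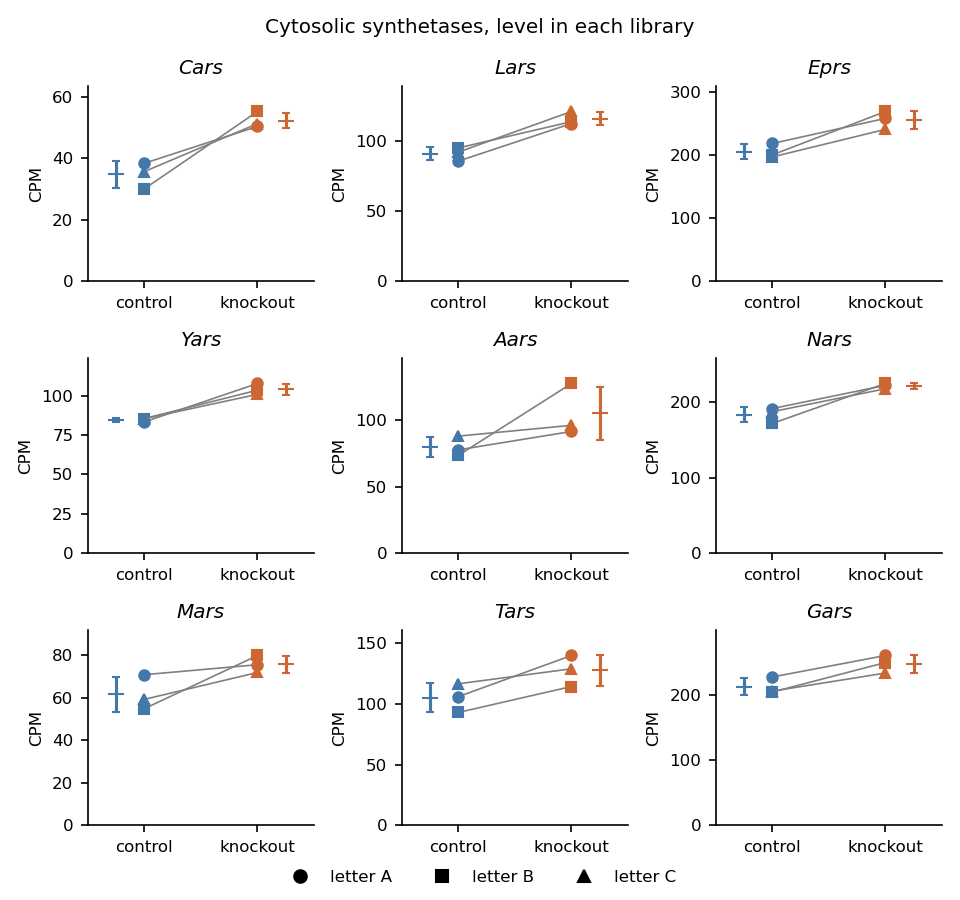
CPM in each library for the 9 cytosolic synthetases with the smallest p; lines join libraries of the same letter, and the bars at the sides are means ± SD of 3 libraries. For 8 of the 9 genes every knockout is above every control, and Tars is the exception.

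The other cytosolic synthetases showed small differences with overlapping groups. Positive log2 changes were 0.16 ± 0.14 for Dars (aspartate), 0.14 ± 0.12 for Rars (arginine), 0.12 ± 0.11 for Qars, 0.092 ± 0.13 for Vars and 0.067 ± 0.098 for Sars (serine). The negative ones were -0.11 ± 0.11 for Farsb, -0.10 ± 0.14 for Farsa, -0.071 ± 0.096 for Kars (lysine), -0.054 ± 0.098 for Hars (histidine) and -0.022 ± 0.12 for Wars (tryptophan). Farsa and Farsb, whose products form 1 enzyme, both had their lowest value in knockout B, at 267 and 127 CPM. The other knockouts had 347 to 399 and 156 to 167 CPM. In controls the 2 genes did not go together: control A was the highest for Farsa (390 CPM) and the lowest for Farsb (151 CPM). Without knockout B the change of Farsa was 0.040. For 12 of the 20 genes the knockout had the higher value in all 3 letters, and Kars alone had the lower value in all 3. Of all 14913 genes tested, 2413 were higher and 2499 lower in all 3 letters.

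Enzymes of the multi-synthetase complex and those outside it had similar medians. In the complex 7 of 8 had higher values (median log2 change 0.21), and outside it 8 of 12 (median 0.16). The summed level in the complex was 653 to 682 CPM in controls and 753 to 806 CPM in knockouts. Outside it the sum was 1472 to 1543 CPM in controls and 1550 to 1710 CPM in knockouts. The groups were apart for both, though outside the complex control A and knockout B were almost level. The exception within the complex was Kars. Split by amino acid, 5 of the 9 cytosolic genes for LAT1 substrates had higher values (Lars, Yars, Mars, Iars and Vars) with a median of 0.092, and 4 had lower ones (Farsa, Farsb, Hars and Wars). For the other amino acids 10 of 11 had higher values, with a median of 0.22. The summed level of the LAT1 substrate enzymes, of which Farsa makes up a large share, was 981 ± 32.9 CPM in controls and 1008 ± 73.4 CPM in knockouts, with overlapping groups. That of the others was 1188 ± 41.7 and 1389 ± 40.8 CPM, with groups apart. The difference between these subsets was not tested.

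A subset of 12 cytosolic genes that are often listed as ATF4 targets held all 10 genes with an unadjusted p under 0.05. In it 11 of 12 had higher values (median 0.29), and the members over that p were Sars (0.067) and Wars (-0.022). Of the 8 cytosolic genes outside it 4 had higher values (median 0.019). This subset was written down with earlier results of these data known, so its split is a description. Among 26 other ATF4 target genes chosen in the same way, all 25 that were tested had higher values (median 0.52). Of these 2 passed in edgeR, 11 with the letter as a block and 8 in DESeq2. Over all genes the shares that passed were 0.0335%, 0.845% and, of those given an adjusted p in DESeq2, 0.206%. These counts too are a description. The 2 that passed in edgeR were the cationic amino acid carrier Slc7a3 (log2 change 1.83 ± 0.18, adjusted p = 5.65e-04) and the translation repressor gene Eif4ebp1 (2.06 ± 0.26, adjusted p = 0.00445). The largest change of a synthetase, 0.59 for Cars, lay near the median of these other targets.

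Sequence near the start sites was searched for the core of the amino acid response element, TGATGNAA, on both strands, because ATF4 binds elements of this kind. RefSeq windows from 250 bases before to 50 bases after the start site (build GRCm38.p6) were matched for 29 of the 38 members. The core was present in 5 of 13 cytosolic genes, in 0 of 14 mitochondrial genes and in 0 of 2 scaffold genes, against 4.51% of all 27025 genes with a window. The 5 genes were Aars, Gars, Iars, Tars and Yars. All 5 were among the 10 cytosolic genes with an unadjusted p under 0.05, as were 2 (Eprs and Mars) of the 8 cytosolic genes whose window lacked it. Cars, Lars and Nars, which are also among the 10, had no matched window and were not searched. The median log2 change was 0.28 with the core and 0.095 without it. This split covers only the 13 cytosolic genes with a window, is a description and was not tested. One site for each of the 5 genes is shown, as these are the higher genes that hold these letters near the start, on the gene's strand from 5′ to 3′, with the core in capitals. It reads TGATGCAA or TGATGAAA on the gene's own strand for Yars and on the opposite strand for the others.

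Aars, chr8:111033840-111033869, 9 bases after the start site: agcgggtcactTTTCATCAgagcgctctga
Gars, chr6:55037960-55037989, 30 bases before: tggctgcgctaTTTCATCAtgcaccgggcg
Iars, chr13:49682126-49682155, 7 bases after: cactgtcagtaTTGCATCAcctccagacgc
Tars, chr15:11399655-11399684 (minus strand), 15 bases before: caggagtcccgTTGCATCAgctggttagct
Yars, chr4:129189895-129189924, 3 bases after: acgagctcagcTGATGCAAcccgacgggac

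Distances run from the start site to the first base in capitals. A match describes letters only, and binding at these sites was not measured in this study.

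Of the 16 mitochondrial synthetases 2, Aars2 and Pars2, had groups that did not overlap, both with higher values in the knockout. Over all genes tested the groups did not overlap for 5.89% with higher and 6.28% with lower values. No member of the mitochondrial set passed a test. In the knockout 10 had higher and 6 lower values, with a median log2 change of 0.098, and 0 had an unadjusted p under 0.05 in edgeR and 0 passed in DESeq2 or with the letter block. Their summed level was 294, 278 and 275 CPM in controls and 290, 285 and 295 CPM in knockouts, so the groups overlapped. The median rested on single libraries: it was 0.027 without knockout A, 0.033 without knockout B, 0.041 without knockout C and 0.062 without control A. Mitochondrial members had 24 to 542 reads per library against 212 to 3881 for the cytosolic ones, and the median SE of their log2 changes was 0.16 against 0.11, so changes of the cytosolic size were harder to detect in them.

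Aars2, the mitochondrial alanine enzyme, had the smallest p of this set. It stood at 8.15, 9.18 and 9.88 CPM in controls and at 10.1, 11.9 and 11.6 CPM in knockouts, and the groups did not overlap (log2 change 0.30 ± 0.17, edgeR adjusted p = 0.779). Mars2, for methionine, was at 15.6, 14.6 and 12.9 CPM in controls and 12.04, 12.5 and 13.1 CPM in knockouts (-0.20 ± 0.15). Its groups met at control C and knockout C.

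Iars2, for isoleucine, was at 26.0, 33.7 and 27.7 CPM in controls and 24.8, 27.1 and 25.9 CPM in knockouts (-0.17 ± 0.13). Control B was the highest library, and the others lay within the range of 24.8 to 27.7 CPM. Iars2 is the neighbour of Eprs on chromosome 1 (185284726 to 185329396, minus strand), which had higher values in all knockouts. Tars2, for threonine, was at 22.3, 17.6 and 19.6 CPM in controls and 22.6, 25.5 and 18.1 CPM in knockouts (0.15 ± 0.15), with overlapping groups.

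Hars2, for histidine, was at 50.3, 40.9 and 43.6 CPM in controls and 55.8, 39.5 and 51.9 CPM in knockouts (0.12 ± 0.14). It starts beside Hars on chromosome 18 and runs the other way, and neither gene of this pair had groups that were apart. Lars2, for leucine, was at 14.1, 11.9 and 12.6 CPM in controls and 15.0, 11.2 and 17.0 CPM in knockouts (0.16 ± 0.18). Both libraries of letter B were the lowest of their group for Hars2 and for Lars2.

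The remaining mitochondrial enzymes had log2 changes of 0.22 ± 0.24 for Pars2 (proline), 0.15 ± 0.23 for Nars2 (asparagine), 0.13 ± 0.14 for Fars2 (phenylalanine), 0.11 ± 0.21 for Wars2, 0.090 ± 0.19 for Ears2 (glutamate) and 0.058 ± 0.12 for Cars2 (cysteine). Lower values were those of Sars2 (serine, -0.16 ± 0.29), Vars2 (valine, -0.081 ± 0.13), Rars2 (arginine, -0.041 ± 0.14) and Yars2 (tyrosine, -0.026 ± 0.16). Pars2 was the other mitochondrial gene whose groups did not overlap, with 3.35 to 4.63 CPM in controls and 4.78 to 4.84 CPM in knockouts, a low level at which 1 CPM is few reads. Of the mitochondrial genes for LAT1 substrates 4 of 8 had higher values (median 0.040), and of the others 6 of 8 (median 0.12).

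The classes were set side by side by letter, library and amino acid. By letter, the median difference between knockout and control in log2 CPM was 0.16, 0.28 and 0.14 for the cytosolic genes, and 0.020, 0.018 and 0.061 for the mitochondrial ones. The knockout had the higher value for 16, 16 and 15 of 20 cytosolic genes and for 9, 9 and 9 of 16 mitochondrial genes. The cytosolic median was thus above the mitochondrial one in each letter. It was highest in letter B, while the summed cytosolic level differed most in letter A. The cytosolic minus mitochondrial difference of the median log2 changes was 0.092, and it depended on single libraries: it was 0.17 without control A, 0.16, 0.15 and 0.22 without knockouts A, B and C, and 0.12 without either of the other controls. It is given with no test, since it is a score over chosen genes.

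**Figure D4:**
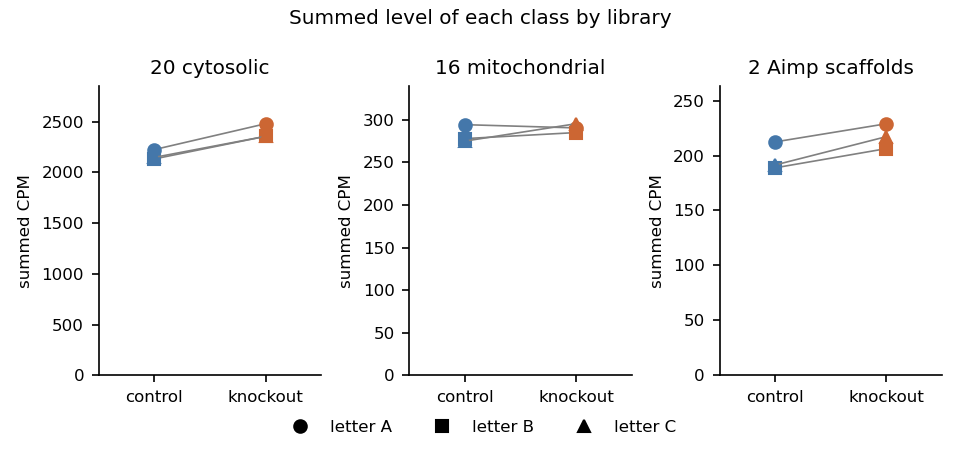
Summed CPM of the 20 cytosolic, 16 mitochondrial and 2 scaffold genes in each library, with lines joining libraries of the same letter. The cytosolic sums are 2133 to 2225 CPM in controls and 2356 to 2480 CPM in knockouts, and the mitochondrial sums overlap.

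For each library the median of the class was taken after each gene's log2 CPM had been centred on its mean over the 6 libraries. For cytosolic genes this gave -0.058, -0.15 and -0.056 in controls and 0.090, 0.13 and 0.074 in knockouts. For mitochondrial genes it gave 0.049, -0.060 and -0.035 in controls and 0.0040, 0.048 and 0.044 in knockouts. The mitochondrial median of control A was above that of every knockout, so the groups overlapped there, while the cytosolic medians were apart.

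For 13 amino acids the list pairs a cytosolic symbol with the same symbol ending in 2. The log2 ratio of the cytosolic to the mitochondrial gene was compared between groups in an exact two-sided permutation test. Phenylalanine, with separate cytosolic genes for the subunits, was left out. There Farsa (-0.10) and Farsb (-0.11) had lower values in the knockout and Fars2 (0.13) a higher one, against the direction of most pairs. The ratio was higher in the knockout for 11 of the 13, by 0.18 at the median. The groups did not overlap for 5, namely Cars over Cars2 (knockout minus control 0.53), Mars over Mars2 (0.49), Iars over Iars2 (0.41), Yars over Yars2 (0.32) and Vars over Vars2 (0.17, with the nearest libraries of the groups almost level). Each of these had an exact permutation p = 0.1, the smallest that 3 against 3 libraries allow, and the smallest adjusted p over the 13 was 0.26 in that permutation test, so none could pass. The log2 ratio of Cars to Cars2 was 0.14, -0.074 and 0.11 in controls and 0.43, 0.83 and 0.52 in knockouts. For alanine both genes had higher values (0.40 and 0.30), and the ratio of Aars to Aars2 differed by 0.093 with overlapping groups. The ratio was lower in the knockout for tryptophan (-0.13) and histidine (-0.17), also with overlapping groups.

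**Figure D5:**
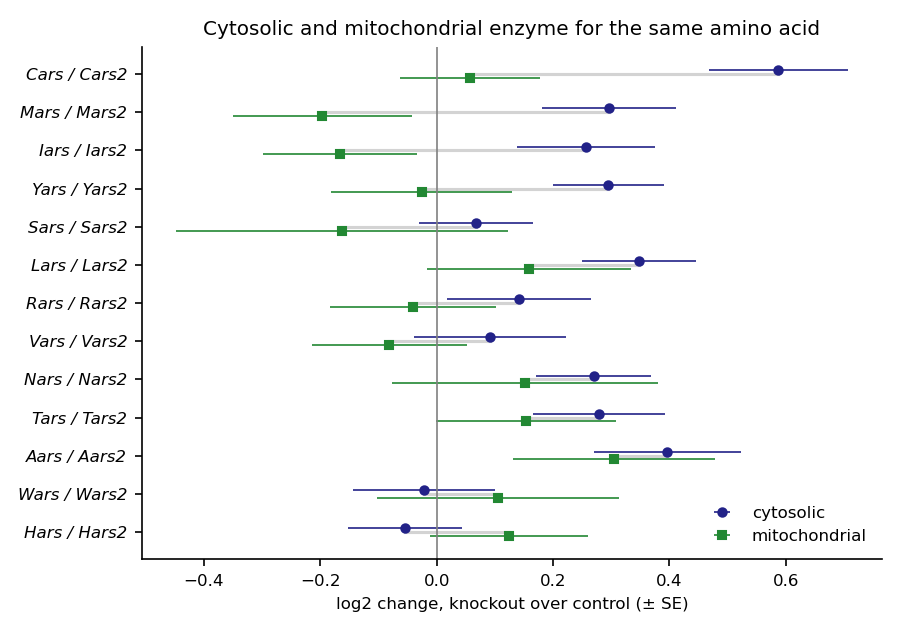
Log2 change of the cytosolic (circle) and the mitochondrial (square) synthetase for the same amino acid, with SEs from edgeR's fit to 3 libraries per group. The cytosolic point lies to the right for 11 of 13 amino acids, by most for cysteine (0.59 and 0.058). Phenylalanine, with separate cytosolic genes for the subunits, is left out.

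Of the scaffolds, Aimp1 had a higher value in the knockout and Aimp2 a value close to that of the controls, and the difference between them was not tested. Aimp1, which also gives rise to a secreted cytokine, was at 142, 115 and 119 CPM in controls and 152, 137 and 158 CPM in knockouts. It was higher in the knockout in each letter, but knockout B lay below control A, and the log2 change was 0.25 ± 0.11 (edgeR adjusted p = 0.705). Aimp2 was at 70.3, 73.4 and 72.3 CPM in controls and 76.6, 68.8 and 59.1 CPM in knockouts (-0.079 ± 0.11, and 0.012 without knockout C). Its controls were tight and its knockouts spread to both sides of them. Exons of Aimp2 overlap Eif2ak1 on the opposite strand, and in counts taken without regard to strand it had 0 to 3 reads per library, against 569 to 744 in the stranded counts used. Eef1e1, the other scaffold of the complex, had a log2 change of 0.0057 ± 0.15.

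Other steps of tRNA charging and use were read from lists of related genes, in none of which a member passed in edgeR. Among 12 partners of the synthetases 7 had higher values, and 0 had an unadjusted p under 0.05. The smallest p values belonged to Pstk, a kinase of selenocysteine tRNA synthesis (0.21 ± 0.18), and Aarsd1, an alanyl-tRNA editing protein (0.43 ± 0.47). Of 17 genes of tRNA maturation and modification 8 had higher values, with 0.25 ± 0.11 for the methyltransferase subunit Trmt6 and 0.37 ± 0.18 for the pseudouridine synthase Pus3. The tRNA export receptor Xpot, another gene often listed as an ATF4 target, was at 46.9 to 54.6 CPM in controls and 48.2 to 55.0 CPM in knockouts (0.022 ± 0.11). Of 10 elongation factors 5 had higher values, with -0.30 ± 0.12 for Eef1a2, the factor that brings charged tRNA to the ribosome in mature neurons, and 0.17 ± 0.13 for the mitochondrial factor Gfm2. The medians of these 3 lists were 0.013, -0.0077 and -0.0021, near the median of all genes.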

How the data were processed

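The authors deposited raw counts of reads per gene, 1 table per library, as STAR writes them. The submitters' processing notes name STAR 2.5.4, GRCm38 and mm10, and the libraries are polyA libraries of a strand-marking kit per the labels' protocols. The annotation release is not given in the sources used here. Multi-mapping reads numbered 0 in all tables, and a read that fits several near-identical genes adds to none of them. The stranded column used held 18.6 times the reads of the opposite strand. The 4 summary lines entered neither library sizes nor tests. Reads outside exons were 22.5 to 27.9% and ambiguous reads 0.689 to 0.759% of mapped reads. Symbols and lengths came from GENCODE M21 (52403 identifiers found).

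Counts were fitted in R 4.3.3 with edgeR 4.0.16 (filterByExpr, TMM factors 0.979 to 1.04, robust quasi-likelihood F-test, Benjamini-Hochberg over all 14913 genes). The SE is the log2 change divided by the root of F. CPM use the TMM-scaled sizes; values by letter, library medians and ratios use log2 of CPM plus 0.5. The fit was tested on simulated data. DESeq2 1.42.0, RLE scaling, other filters, unstranded counts, the letter as a block and leaving out each library were alternatives. Same-letter libraries deviated together (correlations 0.417, 0.342 and 0.211, and at most -0.0310 between letters). Libraries of 1 letter were therefore treated as pairs in the block fit and in values by letter. This rests on the check and not on a label that explains the letters. The main edgeR fit held no letter term. It gave the log2 changes, SEs and adjusted p values except where another fit is named. Every pair of libraries within a group differed by more than sampling noise (smallest chi-square over its degrees of freedom 7.55). The series' design text calls the samples biological replicates. Members, classes and lists were chosen with earlier results of these data known. By the naming rule, 9 cytosolic and 6 mitochondrial genes with the smallest p and both scaffolds are given by library, other members by log2 change, and from each related list any called gene or the 2 with the smallest p; Eef1e1 and Xpot were added for their roles. A related gene and a sequence are not reported here.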

Additional observations from a re-analysis of the deposited data

Results flagged for a closer look

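Reads mapped outside exons on the strand used, which enter no comparison of genes, took a larger share in the knockouts than in the controls. The share was 27.7 ± 0.272% of mapped reads in knockouts and 24.0 ± 2.17% in controls (SD, n = 3), and the groups did not overlap (exact two-sided permutation p = 0.1, the smallest that 3 against 3 libraries allow). It was singled out because the level exceeds that of the control samples. Its part in the synthetase values was not tested.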

How the results depend on the processing

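The count of 15 cytosolic genes with higher values was 15 under all 6 alternatives of scaling, test, filter, strand and block, and 14 to 16 with 1 library left out. That of 10 mitochondrial genes was 9 to 10 and 9 to 13. The 9 among the 6 alternatives came from the stricter filter, which left 14 of the 16 mitochondrial genes. The number of members called, 0, was 1 (Cars) with DESeq2, without the filter on low counts and with the letter as a replicate block, and 0 with each library left out. All genes called numbered 5, against 26 with DESeq2, 71 without the filter, 126 with the block and 1 to 9 with 1 library left out (knockout C left out gives 9, knockout B 1, and either control A or B 2). Pairing by the block changed no other member's call. Cars had log2 changes of 0.59 in each of these 3 fits (adjusted p = 0.0183, 0.00393 and 0.00276). With 1 library left out the cytosolic median was 0.19 to 0.26, the mitochondrial one 0.027 to 0.078 and their difference 0.12 to 0.22; leaving Gars, Kars and Qars out gave 0.26 and 0.16 for the first and last. The ratio of levels per length was 5.70 with the principal transcript, an alternative chosen after seeing the data. In 27 of 38 members no alternative changed the sign. The sign changed for some library left out in Dars (-0.032 to 0.28), Farsa (-0.24 to 0.040), Vars (-0.0065 to 0.20), Wars (-0.14 to 0.078), Cars2 (-2.7e-04 to 0.13), Nars2 (-0.13 to 0.35), Rars2 (-0.089 to 0.015), Sars2 (-0.41 to 0.025), Vars2 (-0.16 to 0.040), Yars2 (-0.13 to 0.078) and Aimp2 (-0.17 to 0.012), none of which passed in any fit. Aimp2 had too few unstranded reads to be tested there. In data simulated for this comparison over 14688 genes, edgeR called 53.7% of 1.5-fold changes and 89.5% of 2-fold changes. It also called 9 genes that had not been changed. The simulated counts held no letter effect and took each gene's spread from the trend, and genes at low levels were given no change. These shares need not hold for the members.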
